A study of Mus musculus with 10 samples.

Results

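Skeletal muscle genes were followed in whole skin of mice with imiquimod-induced skin inflammation, with and without the dopamine D2 receptor agonist quinpirole. The genes were taken from a list of 38 symbols for the sarcomere, calcium handling and energy metabolism of skeletal muscle. The list was chosen with earlier results of these data known. The rule for its genes is the symbol alone, with no threshold on a measured value. Of the 38 symbols, 35 were among the 17016 gene symbols of the expression table, and 33 were among the 14548 genes tested. Myh7, Myl2 and Myl3, the slow myosin heavy and light chains, were not among the symbols, and their expression is not analysed here. All samples were back skin of BALB/c mice, all female and 10 to 11 weeks old, whose shaved backs received 5% imiquimod cream, a ligand of the receptor TLR7, daily over 5 days. The quinpirole group (5 libraries) received 5 intraperitoneal injections of quinpirole during that time, and the vehicle group (5 libraries) received vehicle. Skin without imiquimod was not analysed here. The labels number the samples within a group without stating that each came from its own mouse, so a p-value here reflects the spread among these samples, which may be technical.

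Mouse skin contains a sheet of striated muscle, the panniculus carnosus, beneath the dermis and its fat, and whole skin therefore holds RNA of muscle fibres. In each fibre, myosin heavy chains of the thick filament pull on actin of the thin filament, and the troponin and tropomyosin proteins let them do so when calcium leaves the sarcoplasmic reticulum. Fast and slow fibres carry different versions of myosin, troponin and calcium pump. Among the fast myosins, Myh4 encodes the IIB form of the fastest fibres, Myh1 the IIX form and Myh2 the IIA form. In bulk RNA, fewer muscle fibres and less RNA per fibre cannot be told apart.

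The 3 fast myosin genes lie next to each other on chromosome 11, on the plus strand, in the order Myh2 (67171027 to 67197517), Myh1 (67200052 to 67224575) and Myh4 (67238029 to 67260446) in the GENCODE annotation of GRCm38. Their promoters are shown to describe the genes. The sequences are those of the reference genome and were not read from these BALB/c mice. They were not related to the levels of the libraries. Each line gives the 250 bases before the RefSeq start, from the GRCm38.p6 table, 5′ to 3′ on the plus strand. The RefSeq starts of Myh1 and Myh4 differ from the GENCODE ones. Capitals mark E-boxes (CANNTG, bound by myogenic factors), the TATA box letters TATAAA, the MEF2 box and the CArG box, searched on both strands.
Myh1, chr11:67199852-67200101: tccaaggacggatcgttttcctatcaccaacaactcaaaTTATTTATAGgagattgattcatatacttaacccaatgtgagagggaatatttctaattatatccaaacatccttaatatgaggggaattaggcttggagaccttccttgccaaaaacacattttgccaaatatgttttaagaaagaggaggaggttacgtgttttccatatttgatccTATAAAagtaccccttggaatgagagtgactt
Myh2, chr11:67170777-67171026: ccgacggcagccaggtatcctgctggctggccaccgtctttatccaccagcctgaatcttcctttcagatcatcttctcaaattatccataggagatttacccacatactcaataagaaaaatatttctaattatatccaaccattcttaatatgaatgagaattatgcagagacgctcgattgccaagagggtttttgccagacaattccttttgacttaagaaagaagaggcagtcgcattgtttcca
Myh4, chr11:67237562-67237811: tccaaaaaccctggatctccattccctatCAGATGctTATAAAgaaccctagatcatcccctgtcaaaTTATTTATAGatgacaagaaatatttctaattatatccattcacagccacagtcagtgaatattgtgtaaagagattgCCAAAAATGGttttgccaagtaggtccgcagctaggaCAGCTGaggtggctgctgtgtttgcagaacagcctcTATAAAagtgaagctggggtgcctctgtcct

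The Myh1 window held a MEF2 box starting 211 bases before the start, which overlaps a TATAAA match on the same letters, and a second TATAAA 32 bases before the start. The Myh4 window held TATAAA at 213 and 31 bases, E-boxes at 221 and 67 bases, a CArG box at 104 bases and a MEF2 box at 182 bases that again overlaps a TATAAA match, at 179 bases. None of these letters was found in the Myh2 window. A run of 20 bases, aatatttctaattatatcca, was shared by all 3 windows and lay 165, 130 and 163 bases before the start of Myh1, Myh2 and Myh4. It occurred in 3 of the 32851 promoter windows of the RefSeq table.

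The table held promoter windows for 30 of the 38 genes, with 36 start sites in all, those of Myh7, Myl2 and Myl3 included. The E-box CAGCTG was present in 18 of the 36 windows (50.0%) and in 13.0% of all 32851 windows. Any CANNTG was present in 88.9% against 66.2%, the MEF2 box in 13.9% against 2.92%, the CArG box in 8.33% against 1.47%, and TATAAA in 16.7% against 12.4%. The 5 genes with a MEF2 box were Myh1, Myh4, Pgam2, Pvalb and Ttn, and those with a CArG box were Acta1, Myh4 and Myl3. These are matches of letters, and binding was not measured.

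Values are in CPM, read counts scaled to the normalised size of each library, and 1 read was worth between 0.119 and 0.146 CPM. The libraries held 6763367 to 8361877 reads. Skeletal muscle RNA was well above the detection limit in every library. In replicate order, the 35 genes summed to 3963, 2758, 4423, 2039.7 and 7336 CPM with vehicle, and to 4181, 4304, 8962, 19689.7 and 10507 CPM with quinpirole. These sums are not scaled by length, and Ttn, with a transcript of 106.8 kb, made up a large part of them. Ttn alone gave 1640.3 CPM in vehicle replicate 1 and 9116 CPM in quinpirole replicate 4. Quinpirole replicate 4 stood apart as the highest of the 10 libraries in 27 of the 32 tested genes other than Tnnt1. Quinpirole replicate 5 was highest in the other 5. Vehicle replicate 5 was the highest vehicle library in 28 of the 32, and vehicle replicate 4 was the lowest library of all in 18. The mean of the 33 tested genes on the log2(CPM + 1) scale was 5.57, 4.90, 5.60, 4.75 and 6.27 in the vehicle libraries and 5.60, 5.70, 6.51, 7.66 and 6.76 in the quinpirole libraries. The group means were 5.42 ± 0.61 (SD, n = 5) and 6.45 ± 0.85 (SD, n = 5), and the groups overlap.

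**Figure D1:**
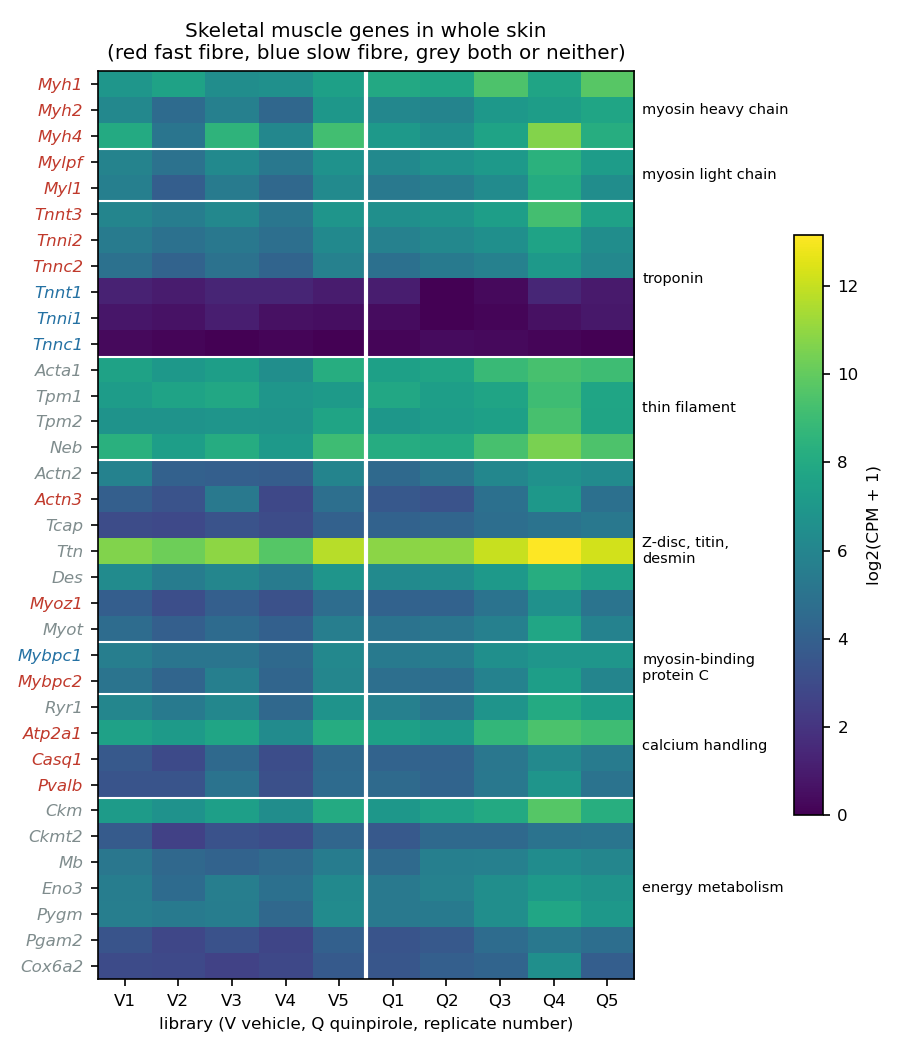
Level of the 35 skeletal muscle genes (rows, grouped by role) in each of the 10 libraries (columns, V vehicle and Q quinpirole), as log2(CPM + 1). Ttn is the brightest row, quinpirole replicate 4 is the brightest column, and the slow troponins Tnnt1, Tnni1 and Tnnc1 are the dark rows near 0.

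With quinpirole, 32 of the 33 tested genes had a higher mean than with vehicle, by a median log2 fold change of 1.07, and this held for each of the 14 fast-fibre genes and each of the 17 genes assigned to neither fibre type alone. Limma called 0 of the 33 at an adjusted p of 0.05, where it called 0.0206% of all tested genes. The values are given by role, from the thick filament to energy supply.

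Fast myosin heavy chain genes were abundant in both groups, and each had a higher mean with quinpirole, with groups that were apart for Myh1 and overlapped for Myh2 and Myh4. Myh1, the IIX chain, measured 121, 190.0, 86.0, 97.1 and 179.5 CPM with vehicle and 242, 214, 713, 206 and 862 CPM with quinpirole, in the order of the replicate numbers. Each quinpirole value was above each vehicle value, with quinpirole replicates 3 and 5 far above the rest. Its log2 fold change was 1.51 with a standard error of 0.42 and a 95% interval of 0.59 to 2.43, and limma's adjusted p over all tested genes was 0.232. Myh2, the IIA chain, measured 70.2, 23.4, 52.2, 19.7 and 123 CPM with vehicle and 67.0, 60.7, 130.0, 158 and 213 CPM with quinpirole. The quinpirole replicates 3 to 5 were above each vehicle library, and replicates 1 and 2 lay inside the vehicle range. The fold change of Myh2 was 1.26 ± 0.49 (log2, SE; limma adjusted p = 0.359).

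Myh4, the IIB chain, varied more than any other tested muscle gene. Its vehicle values were 260.4, 33.2, 376, 68.3 and 583 CPM and its quinpirole values 133, 93.5, 199.9, 1688 and 291 CPM. The groups overlapped widely, and only quinpirole replicate 4 lay above the highest vehicle library. The log2 fold change was 0.64 with an interval of -1.26 to 2.54 (limma adjusted p = 0.825), and it was -0.030 without quinpirole replicate 4. The corresponding value for Myh1 without that library was 1.71.

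The mix of fast myosins differed between libraries of the same group. Per kilobase of transcript, the ratio of Myh4 to Myh1 ran from 0.177 in vehicle replicate 2 to 8.28 in quinpirole replicate 4. Myh4 was above Myh1 in vehicle replicates 1, 3 and 5 and in quinpirole replicate 4, and Myh1 was above Myh4 in the other 6 libraries. As a share of the 3 genes per kilobase, Myh4 held 49.6% ± 24.3 (SD, n = 5) with vehicle and 35.8% ± 26.4 (SD, n = 5) with quinpirole, a difference smaller than the spread within either group. Counting error was small beside these differences. In reads, the Myh4 share was 13.5% of 1731 reads (11.9 to 15.1%) in vehicle replicate 2 and 82.2% of 16143 reads (81.6 to 82.8%) in quinpirole replicate 4 (Wilson intervals, which cover counting error only). Some of the transcript sequence is common to these genes. Of all 100-base windows of the Myh1 transcript, 7.59% also occur in Myh2 and 2.22% in Myh4, and reads from them could be split between genes.

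**Figure D2:**
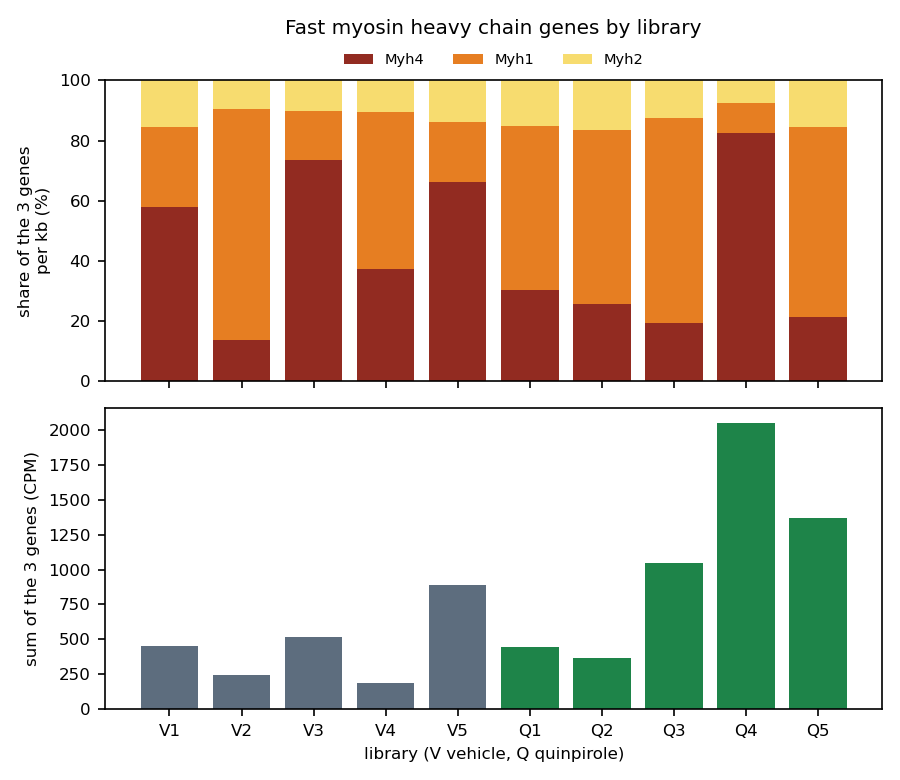
Upper panel, share of Myh4, Myh1 and Myh2 in the sum of the 3 genes per kilobase, in each library (V vehicle, Q quinpirole); lower panel, their sum in CPM. Myh4 takes 82.4% in quinpirole replicate 4 and 13.6% in vehicle replicate 2, and libraries of both groups lie between these.

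Both fast myosin light chain genes had higher values in most quinpirole libraries. Mylpf, the regulatory light chain, measured 57.2, 30.5, 74.4, 37.6 and 104 CPM with vehicle and 74.3, 103, 131, 335 and 151 CPM with quinpirole. Quinpirole replicates 1 and 2 were about level with vehicle replicates 3 and 5, and the other 3 quinpirole libraries were higher. The fold change was 1.31 ± 0.40 (log2, SE; limma adjusted p = 0.247). Myl1, the essential light chain, ranged from 14.1 to 78.2 CPM with vehicle and from 38.9 to 274 CPM with quinpirole, with a fold change of 1.21 ± 0.54 (limma adjusted p = 0.419) that was 0.77 without quinpirole replicate 4.

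Troponin is the calcium switch of the thin filament, with a T subunit that holds tropomyosin, an inhibitory I subunit and a calcium-binding C subunit. All 3 fast subunits had higher group means with quinpirole, and the slow subunits were near the detection limit in both groups. Tnnt3, fast troponin T, measured 61.7, 46.3, 70.5, 35.3 and 115 CPM with vehicle and 93.0, 107, 162, 598 and 180.4 CPM with quinpirole. Vehicle replicate 5 was above quinpirole replicates 1 and 2, and the other 4 vehicle libraries were below each quinpirole library. Its log2 fold change of 1.53 (interval 0.54 to 2.53, limma adjusted p = 0.240) was the largest of the 33 genes, and was 1.09 without quinpirole replicate 4. Tnni2, fast troponin I, measured 42.6, 28.8, 37.0, 27.3 and 74.2 CPM with vehicle and 53.6, 70.8, 91.9, 197 and 87.7 CPM with quinpirole. Only vehicle replicate 5 reached into the quinpirole range. The fold change of Tnni2 was 1.19 ± 0.33 (limma adjusted p = 0.232). Tnnc2, fast troponin C, ranged from 17.5 to 53.4 and from 28.1 to 132 CPM, with a fold change of 1.03 ± 0.39 (limma adjusted p = 0.347).

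Slow troponin RNA amounted to a few reads per library. Tnnt1, slow troponin T, had 11, 7, 12, 12 and 7 reads in the vehicle libraries and 9, 0, 2, 13 and 7 reads in the quinpirole libraries. The 0 in quinpirole replicate 2 allows up to 0.437 CPM, the level of 3 reads. Tnnt1 was the single tested muscle gene with a lower quinpirole mean, at -0.45 ± 0.25 on the log2 scale (SE; limma adjusted p = 0.533), and its groups overlap. The value was -0.26 without quinpirole replicate 2. Tnni1, slow troponin I, gave 26 reads in all with vehicle and 14 with quinpirole, and Tnnc1, the troponin C of slow fibres and heart, had 4 and 6. Both were below the filter and were not tested. Over all libraries and per kilobase, Tnnt3 was 138.5 times Tnnt1, Tnni2 was 204 times Tnni1, and Tnnc2 was 363 times Tnnc1. The log2 ratio of Tnnt1 to Tnnt3 averaged -4.75 ± 0.74 (SD, n = 5) with vehicle and -6.73 ± 0.83 (SD, n = 5) with quinpirole. For Tnni1 to Tnni2 the means were -4.59 ± 0.67 and -6.11 ± 0.66, and for Tnnc1 to Tnnc2 they were -4.67 ± 0.73 and -5.63 ± 0.89 (SD, n = 5). The groups overlap in each of these ratios, which were not tested. Each ratio was taken after adding 1 CPM to both genes. Tnnt1, Tnni1 and Tnnc1 averaged only 1.04, 0.523 and 0.134 CPM over the 10 libraries, so the ratios follow mainly the fast gene.

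**Figure D3:**
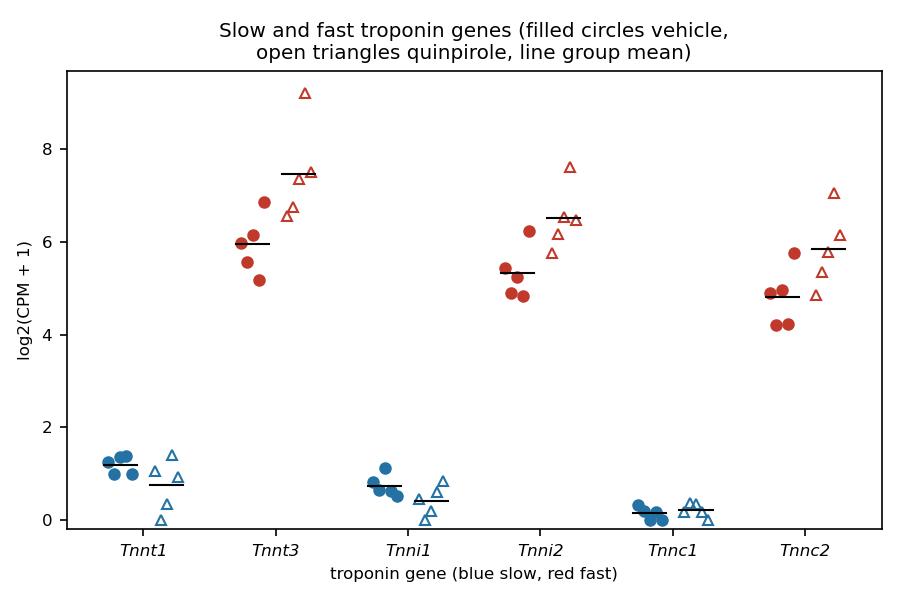
Level of each slow (blue) and fast (red) troponin gene as log2(CPM + 1), with 1 point per library, filled circles for vehicle, open triangles for quinpirole and a line at each group mean. The 3 fast genes lie far above the slow genes, whose groups overlap near 0.

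Mybpc1 and Mybpc2 encode the slow and fast forms of myosin-binding protein C, which links thick and thin filaments. Unlike the troponins, these genes were at similar levels, with Mybpc2 per kilobase at 0.911 times Mybpc1. Mybpc1 is classed as slow by the name of its protein. It averaged 62.2 CPM over the 10 libraries, where the slow troponin Tnnt1 averaged 1.04 CPM. It is therefore not read here as a measure of slow fibres. Mybpc1 measured 47.8, 33.5, 34.1, 21.5 and 69.2 CPM with vehicle and 40.2, 44.9, 91.3, 119 and 121 CPM with quinpirole, and its fold change was 0.95 ± 0.36 (log2, SE; limma adjusted p = 0.346). The quinpirole replicates 3 to 5 were above each vehicle library, and the remaining 2 were within the vehicle range. Mybpc2 ranged from 18.6 to 64.2 CPM and from 25.8 to 166 CPM, with a fold change of 0.66 ± 0.50 (limma adjusted p = 0.658) that was 0.25 without quinpirole replicate 4.

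Of the 4 thin filament genes, Acta1 and Neb had larger differences than the tropomyosins. Acta1, skeletal muscle alpha actin, had the highest level per kilobase of all the listed genes, at 199.9 CPM per kilobase over the 10 libraries. It measured 193, 129.6, 165, 88.0 and 287 CPM with vehicle and 174, 206, 474, 633 and 541 CPM with quinpirole. The quinpirole libraries 3 to 5 were above each vehicle library, and libraries 1 and 2 were not. Its fold change was 1.16 ± 0.39 (limma adjusted p = 0.293). Neb encodes nebulin, the giant protein that runs along the thin filament, and its log2 fold change was 1.10 ± 0.49 (limma adjusted p = 0.418). Tpm2 and Tpm1, the tropomyosins that smooth muscle and other cells also make, had log2 fold changes of 0.75 ± 0.38 and 0.56 ± 0.28 (limma adjusted p = 0.481 and 0.478). Without quinpirole replicate 4 these were 0.35 and 0.28.

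Tcap encodes telethonin, which caps titin at the Z-disc, and it had the smallest adjusted p of the muscle genes. Its vehicle values were 7.29, 6.41, 9.30, 7.26 and 16.2 CPM and its quinpirole values 16.7, 18.5, 25.8, 31.8 and 37.8 CPM. The lowest quinpirole library was just above the highest vehicle library, so the groups did not overlap. The group means were 9.30 ± 4.01 CPM and 26.1 ± 8.91 CPM (SD, n = 5). The log2 fold change was 1.40 ± 0.27 with an interval of 0.83 to 1.98, limma's adjusted p was 0.121, and without quinpirole replicate 4 the fold change was 1.32.

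Titin itself, the molecular spring between Z-disc and M-line, gave the most reads of the listed genes. Ttn measured 1640.3, 1215, 1964, 836 and 3475 CPM with vehicle and 1880.0, 1935, 4273, 9116 and 4827 CPM with quinpirole, so that the highest vehicle library exceeded 2 of the quinpirole libraries. Its log2 fold change was 1.18 ± 0.47 (limma adjusted p = 0.366). Myot (myotilin) and Myoz1 (the fast-fibre calsarcin), both at the Z-disc, had log2 fold changes of 1.33 ± 0.48 and 1.20 ± 0.45 (limma adjusted p = 0.324 and 0.332), which were 0.85 and 0.79 without quinpirole replicate 4. Des (desmin, the intermediate filament around the Z-disc) had a value of 1.05 ± 0.37 (limma adjusted p = 0.302). The alpha actinins that anchor thin filaments had smaller or less certain differences, at 0.99 ± 0.51 for Actn2 and 0.68 ± 0.65 for the fast form Actn3 (limma adjusted p = 0.496 and 0.739). Actn3 was 0.11 without quinpirole replicate 4.

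The calcium handling genes were led in level by Atp2a1, the fast-fibre calcium pump SERCA1. Atp2a1 measured 183, 144, 213, 80.6 and 283 CPM with vehicle and 176, 140.0, 412, 689 and 544 CPM with quinpirole. The quinpirole replicates 3 to 5 were the highest 3 of the 10 libraries, and quinpirole replicates 1 and 2 lay within the vehicle range. Its log2 fold change was 0.98 ± 0.45 (limma adjusted p = 0.449). Casq1 (calsequestrin, the calcium store) and Pvalb (parvalbumin, a calcium buffer of fast fibres) had larger fold changes of 1.29 ± 0.42 and 1.26 ± 0.48 (limma adjusted p = 0.280 and 0.347). Ryr1, the calcium release channel, had 0.84 ± 0.55 (limma adjusted p = 0.599), and 0.48 without quinpirole replicate 4. For Pvalb that value was 0.84.

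Among the 7 energy genes, Ckm, the cytosolic muscle creatine kinase, was the most abundant. Ckm measured 146, 103, 169.8, 85.9 and 260.4 CPM with vehicle and 123, 181, 257, 816 and 302 CPM with quinpirole. Quinpirole replicate 4 exceeded all other libraries more than 2 times over, quinpirole replicate 5 lay above the vehicle range, and the other 3 lay within it. The log2 fold change was 0.92 ± 0.44 (limma adjusted p = 0.464), and 0.52 without that library. Ckmt2, the mitochondrial creatine kinase, ranged from 4.84 to 19.2 CPM with vehicle and from 11.7 to 33.5 CPM with quinpirole, with a fold change of 1.14 ± 0.34 that was 1.03 without quinpirole replicate 4 (limma adjusted p = 0.237 with all libraries).

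Cox6a2, the muscle form of a cytochrome oxidase subunit, measured 7.04, 6.55, 4.98, 6.21 and 12.4 CPM with vehicle and 10.5, 15.0, 17.6, 93.0 and 14.3 CPM with quinpirole. Quinpirole replicate 4 was more than 5 times each other library. The log2 fold change was 1.43 ± 0.48 (limma adjusted p = 0.286) and 0.90 without it. The glycolytic genes Pgam2 (phosphoglycerate mutase), Eno3 (beta enolase) and Pygm (muscle glycogen phosphorylase) had log2 fold changes of 1.07, 0.92 and 0.93, and Mb (myoglobin, the oxygen store) had 0.89. Limma's adjusted p for these 4 genes was 0.281, 0.377, 0.484 and 0.335. Pygm was 0.58 without quinpirole replicate 4.

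Across the list, limma's adjusted p ranged from 0.121 to 0.825. The edgeR quasi-likelihood test on the recovered reads called 0 of the 33 as well. In that test 26 of the 33 were higher at an unadjusted p under 0.05, where 6.79% of all genes were. In limma, an unadjusted p under 0.05 with a higher quinpirole mean was found for 22 of the 33 genes (66.7%), against 6.92% of all tested genes. None of the 33 was lower at that level, against 4.47% of all genes. The groups did not overlap for 2 of the 33, Myh1 and Tcap, against 2.20% of all genes in either direction and 1.34% of all genes with higher quinpirole values. Over all tested genes, the quinpirole mean was higher for 49.6%, and the median log2 fold change was -0.00210. Of the muscle genes, 19 reached a log2 fold change of 1, as 0.687% of all genes did. Since the genes share their libraries, these counts are not independent observations, and the list was chosen with earlier results of these data known.

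By fibre class, 10 of 14 tested fast genes passed an unadjusted p of 0.05, with a median log2 fold change of 1.21 and a range of 0.64 to 1.53. Of the 17 genes assigned to neither fibre type alone, 11 passed, with a median of 1.05 and a range of 0.56 to 1.43. For the slow class, 2 of 7 listed genes were tested, Mybpc1 at 0.95 and Tnnt1 at -0.45. By role, the medians were 1.26 for the 3 myosin heavy chains, 1.26 for the 2 light chains, 1.18 for the 7 Z-disc, titin and desmin genes, 1.12 for the 4 calcium genes, 1.11 for the 4 troponins, 0.93 for the 4 thin filament genes, 0.93 for the 7 energy genes and 0.81 for the 2 myosin-binding proteins.

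The result depended in part on quinpirole replicate 4. Without it, the median of the 33 genes was 0.78, and 14 were higher at an unadjusted p under 0.05, where 6.72% of all genes were. Tnnt1 was then lower at that level. In CPM, the mean of the other 4 quinpirole libraries was still above the vehicle mean in 30 of the 32 genes other than Tnnt1. By log2 fold change, 31 of the 33 were higher without that library, where 49.5% of all genes were. Without both libraries numbered 4, which held the highest and the lowest muscle levels, the median was 0.62 and 7 genes passed, against 6.06% of all genes. DESeq2 on the recovered reads called 3 of the 32 muscle genes to which it gave a p, where it called 1.51% of all genes. These were Tcap at a log2 fold change of 1.49 (DESeq2 adjusted p = 2.59e-04), Tnni2 at 1.25 (0.0250) and Myh1 at 1.73 (0.0455). Limma without vehicle replicate 5 called Tcap, at 1.61 (adjusted p = 0.0415), where 0.0687% of all genes were called.

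**Figure D4:**
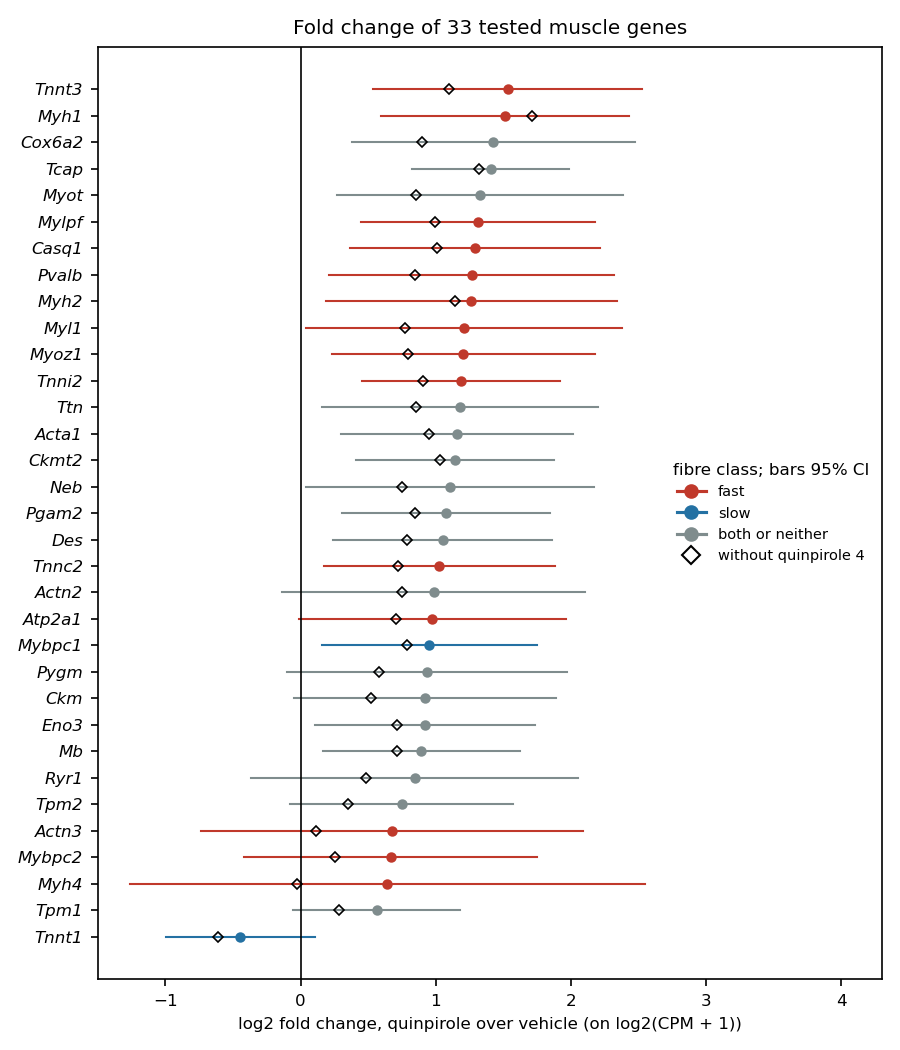
Log2 fold change of quinpirole over vehicle for the 33 tested genes, with 95% intervals from limma (circles, coloured by fibre class) and the value without quinpirole replicate 4 (open diamonds). 32 of the 33 circles lie to the right of 0, and the diamonds of most genes lie to the left of their circles, with Myh1 to the right.

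The tested genes varied together between libraries of a group. The within-group SD of log2(CPM + 1) had a median of 0.85 over the 32 genes other than Tnnt1. When the mean of the other muscle genes in the same library was subtracted, the median SD was 0.31, and it was smaller in 30 of the 32 genes. The tightest after subtraction were Tnnc2 at 0.13, Des at 0.13, Pgam2 at 0.17 and Ttn at 0.17. The loosest were Myh4 at 1.06, Myh1 at 1.03, Tpm1 at 0.65, Actn3 at 0.63 and Cox6a2 at 0.58. Tpm1 and Myh1 were the 2 genes whose SD did not shrink.

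Markers of other tissues also varied between these libraries. The mean of 37 hair shaft genes on the log2(CPM + 1) scale ran, in replicate order, 5.22, 6.10, 6.17, 3.57 and 0.951 with vehicle and 6.18, 1.10, 4.14, 1.06 and 2.97 with quinpirole. The hair genes were thus low in vehicle replicate 5 and in quinpirole replicates 2 and 4, and the muscle genes were high in 2 of these 3 libraries. Of the 37 hair genes, 35 had a lower quinpirole mean, with a median log2 fold change of -1.54, and none was called or passed an unadjusted p of 0.05. With the hair mean as a covariate, the median of the muscle genes was 0.86 and 18 of 33 were higher at an unadjusted p under 0.05, where 6.06% of all genes were. The mean of 9 white fat genes ran from 6.20 to 7.07 with vehicle and from 6.50 to 6.98 with quinpirole. It was highest in vehicle replicate 5 (7.07) and quinpirole replicates 4 (6.98) and 5 (6.96), and lowest in vehicle replicate 4 (6.20). Quinpirole replicate 3, with high muscle levels, had 6.70, and vehicle replicate 2, with low muscle levels, had 6.77. The relation between fat and muscle levels was not tested.

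**Figure D5:**
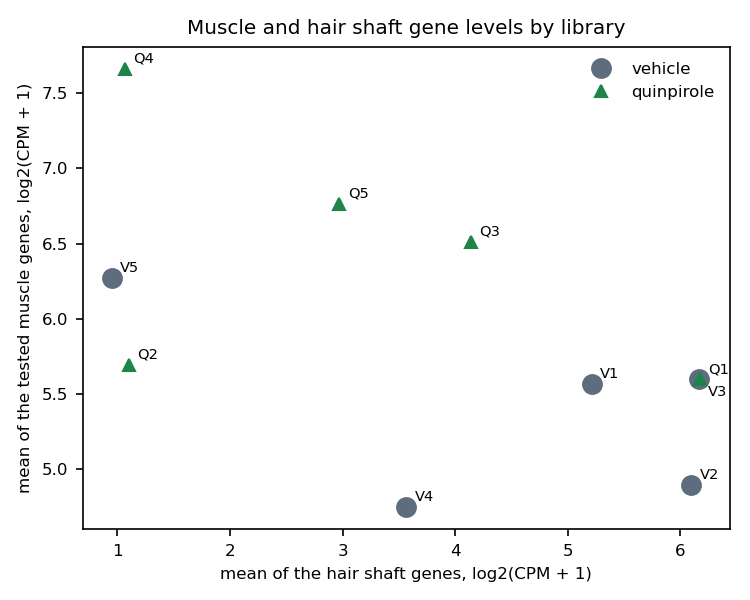
Mean log2(CPM + 1) of the 33 tested muscle genes against that of 37 hair shaft genes, 1 point per library (large circles vehicle, triangles quinpirole; V3 and Q1 share a place). Quinpirole replicate 4 has the highest muscle mean, 7.66, and a hair mean of 1.06, and vehicle replicate 5 has the highest vehicle muscle mean, 6.27, and a hair mean of 0.951.

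Smooth muscle and heart genes checked the label of the muscle RNA. The 15 smooth muscle genes summed to 237 to 400.0 CPM with vehicle and 181 to 405 CPM with quinpirole. Of the 12 tested, 1 was higher at an unadjusted p under 0.05, near the 6.92% of all tested genes, and the median was -0.12. Acta2, smooth muscle actin, was 87.2 ± 20.9 CPM with vehicle and 72.6 ± 28.9 CPM with quinpirole (SD, n = 5; limma adjusted p = 0.676). The gene that passed, named after its value was seen, was Synpo2, an actin-bundling protein of smooth and striated muscle, at 12.5 ± 6.75 and 31.8 ± 14.3 CPM (limma adjusted p = 0.210). Of 9 heart markers, Myh6 and Nppa were not among the symbols, and the 7 others summed to 7.47 to 19.9 CPM with vehicle and 5.42 to 19.9 CPM with quinpirole. Nppb, a natriuretic peptide gene, was the most abundant of them, at 8.22 ± 4.86 CPM with vehicle and 8.49 ± 5.28 CPM with quinpirole (SD, n = 5). Actc1, cardiac actin, was at most 1.54 CPM.

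Further lists of muscle genes had smaller medians than the 33 genes, and limma called 0 of them. Their counts at an unadjusted p under 0.05 with a higher quinpirole mean stand beside 6.92% of all tested genes. Of 36 tested sarcomere and Z-disc genes, 35 had a higher quinpirole mean, 11 passed an unadjusted p of 0.05, and the median was 0.72. The most abundant were Tpm3, Pdlim5 and Xirp2. Tpm3 (148 ± 12.3 against 158 ± 45.2 CPM) and Pdlim5 (139.7 ± 13.5 against 141 ± 20.6 CPM), which many cell types make, differed between the groups by less than their SD. Xirp2, an actin-binding protein of striated muscle, was 49.9 ± 29.2 CPM with vehicle and 150.1 ± 110.3 CPM with quinpirole (SD, n = 5; limma adjusted p = 0.269). Of 23 excitation and calcium genes, 10 passed, with a median of 0.70. Atp2a2, the slow and general calcium pump, was 389 ± 47.9 and 353 ± 43.6 CPM. Srl, sarcalumenin of the sarcoplasmic reticulum, was 19.2 ± 7.33 and 34.2 ± 17.1 CPM.

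Of 20 further metabolic genes, 7 passed an unadjusted p of 0.05 with a higher quinpirole mean, against 6.92% of all tested genes. The median of the 20 was 0.52. Aldoa, the aldolase of muscle and many other cells, was 1092 ± 239.7 CPM with vehicle and 1369 ± 449.7 CPM with quinpirole, and Lpl, lipoprotein lipase, was 314 ± 33.5 and 333 ± 86.4 CPM (SD, n = 5). Gpd1, glycerol-3-phosphate dehydrogenase of muscle and fat, was 55.8 ± 16.4 and 111 ± 43.9 CPM (limma adjusted p = 0.242). For the membrane and dystrophin complex, 5 of 14 passed, with a median of 0.23. Among those that passed was Fhl1, a LIM protein of striated muscle, at 109 ± 50.3 and 195 ± 41.4 CPM (limma adjusted p = 0.237). The broadly made genes of that list, Utrn (utrophin) and Dag1 (dystroglycan), were 161 ± 25.1 against 156 ± 17.6 CPM and 119.7 ± 11.4 against 106 ± 8.14 CPM.

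Further lists covered innervation, fibre repair, fibre type and breakdown. Their counts at an unadjusted p under 0.05 stand beside 6.92% of all tested genes higher and 4.47% lower with quinpirole. At the neuromuscular junction, 2 of 6 tested genes passed an unadjusted p of 0.05, Lrp4 (the agrin receptor) and Ache (acetylcholinesterase), and the median was 0.10. Lrp4 was highest in quinpirole replicate 2, at 144 CPM, where the mean of the tested muscle genes was 5.70. Ncam1 was 12.9 ± 6.97 CPM with vehicle and 8.76 ± 4.67 CPM with quinpirole. It was highest in vehicle replicate 2 (21.9 CPM), where the hair shaft mean was 6.10. It was lowest in vehicle replicate 5 (3.64 CPM), where the hair shaft mean was 0.951. Which cells of the skin made these RNAs was not tested. Among satellite cell and myogenic factors, 1 of 7 tested passed, Mef2c, at 34.3 ± 2.59 and 53.7 ± 15.8 CPM (limma adjusted p = 0.245), while Mef2a and Mef2d had adjusted p of 0.609 and 0.652 in limma. Pax7, Mymk, Mymx and Chrdl2 were not among the symbols. Of the embryonic and specialised myosins, Myh3 and Myh13 were not among the symbols, and Myh8, the perinatal chain, was 1.55 ± 0.826 and 2.48 ± 1.37 CPM (SD, n = 5). Among 12 tested fibre-type regulators, 5 had higher quinpirole means at an unadjusted p under 0.05, Sox6, Prox1 and Nfatc1 among them, and the median was 0.35. Of the abundant genes of that list, Maf and Ppard did not pass, at 96.5 ± 12.1 against 109.8 ± 10.8 and 53.3 ± 10.4 against 46.2 ± 8.40 CPM. Of 10 genes of muscle atrophy and proteolysis, none was higher at that level, 1 was lower (Ddit4), and the median was -0.068. The most abundant of these, Eif4ebp1, Foxo1 and Fbxo30, had limma adjusted p of 0.967, 0.610 and 0.943.

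Myogenic regulators were near the detection limit. Myod1, the master regulator of myogenic commitment, had 1, 0, 1, 1 and 2 reads in the vehicle libraries and 5, 4, 4, 8 and 4 reads in the quinpirole libraries. Each quinpirole library was above each vehicle library. Myod1 was below the filter and was not tested, and it was singled out after its values were seen. Of 2468 genes below the filter, 0.527% had quinpirole values all above the vehicle values. Myog (myogenin) gave 17 reads in all with vehicle and 44 with quinpirole, and Myf5 had 6 and 6.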

How the data were processed

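Total RNA of 10 whole skin samples was depleted of ribosomal RNA and made into directional MGIEasy libraries, per the labels' protocols. Tools listed in the submitters' processing notes, without roles, are RSEM 1.3.0, Trimmomatic 0.38, edgeR and Bowtie2, with mm10 as the build. The annotation used is not given in the sources used here. The deposited file is a table of normalised signal for 17016 gene symbols in 10 libraries. All values (100%) were whole multiples of 1 read within 1e-06 of a read. The normalisation factor implied by the sum of each library equalled edgeR's TMM factor of the recovered reads within 2.22e-16, so the values are CPM on TMM library sizes. The values were used as deposited.

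Values were transformed as log2 of CPM plus 1, and the 14548 genes reaching 1 CPM in at least 5 libraries were tested with limma 3.58.1 in R 4.3.3, with a mean-variance trend, two-sided, with Benjamini-Hochberg adjustment over all of them and calls at 0.05. Fold changes on this scale understate those of low genes. The 38 genes and the other lists were chosen with earlier results of these data known. All members are named, and from each other list the 3 of highest mean level and absent defining markers, except for some genes that are not reported here. Genes of counts of 5 or fewer, Synpo2 among them, and Actc1, Myod1, Myog and Myf5 were named after their values were seen. The main fit was tested on simulated counts in which each gene was drawn independently. The muscle genes varied together, and that test does not cover such genes.

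Alternatives covered pseudocounts of 0.1 and 5, filters, scaling, the variance model, count tests on the recovered reads (DESeq2 1.42.0, edgeR 4.0.16), a hair covariate, the replicate number as a block, and leaving out libraries. Lengths are of the longest basic transcript in GENCODE. In 14 of the 35 genes an exon overlaps a gene on the other strand, for example Myhas at Myh1, and the counting is not stated to use strand, so those reads cannot be told apart. The lowest chi-square per gene between 2 libraries of a group was 5.68, above sampling noise, so no library was counted as a repeat of another. This does not show separate mice. Promoters came from RefSeq, GRCm38.p6. Figures were drawn with matplotlib 3.10.9.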

Additional observations from a re-analysis of the deposited data

Results flagged for a closer look

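In 3 of the 70 sets of 5 values (35 genes in 2 groups; 4.29%), 1 library lay far from the other 4 of its group by Dixon's test on the log2 scale, with a critical gap of 0.71 of the range. Chance flags about 1 in 20 sets. Cox6a2 reached 93.0 CPM in quinpirole replicate 4, where the other quinpirole libraries lay between 10.5 and 17.6 CPM, a gap of 0.770 of the range. Tpm1 reached 535 CPM in the same library, with the others between 166 and 232 CPM and a gap of 0.714. Tpm2 reached 207 CPM in vehicle replicate 5, the vehicle library with the most muscle RNA, and the others lay between 108 and 116 CPM, a gap of 0.885.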

How the results depend on the processing

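The median log2 fold change of the muscle genes was 0.78 to 1.31 when 1 library was left out and 0.62 to 1.14 under the other alternatives, and 31 of the 33 genes kept their direction under all 24. The exceptions were Myh4, at -0.030 without quinpirole replicate 4 and -0.35 without both libraries numbered 4 (-0.030 to 1.09 when 1 library was left out), and Actn3, at -0.18 without both. Muscle genes higher at an unadjusted p under 0.05 numbered 7 without both libraries numbered 4 and 14 to 27 when 1 library was left out, lowest without vehicle or quinpirole replicate 4. The share of all genes was 6.06% without both and 5.31% to 8.82% when 1 library was left out. DESeq2 called 3 of the muscle genes, and leaving out 1 library called 0 to 1. The fast median ran from 0.82 to 1.43 when 1 library was left out. The slow median was -0.12 with a pseudocount of 0.1, -0.13 with no filter, which adds Tnni1 and Tnnc1, and 0.95 with a filter at 5 CPM, which leaves Mybpc1 alone. It was 0.089 to 0.44 when 1 library was left out. The mean log2 ratio of Tnni1 to Tnni2 differed by -1.52 between groups, and by -2.28 with a pseudocount of 0.1. Ratios for the slow myosins were not computed.

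Over all genes, limma called 3. It called 5 with a pseudocount of 0.1, 6 with no filter, 5 with a filter at 5 CPM, 5 with DESeq2 size factors, 5 with library totals with or without the hair genes, 9 without the trend and 14 with the hair covariate. The edgeR test called 5 and DESeq2 called 219. With 1 library left out limma made 0 to 10 calls, and between 1312 and 2215 genes had an unadjusted p under 0.05, and leaving out both libraries numbered 4 gave 0, with 1453. With the replicate number as a block limma called 0, with 1576 at an unadjusted p under 0.05. Same-numbered libraries did not deviate together, with correlations from -0.24 to 0.22, of which 3 of 5 were over 0.1, and 1 of 10 libraries correlated best with its own number, so the numbers are not taken as pairs. The cause of these shifts was not tested. Depth limits the slow troponins, at 0 to 13 reads a library.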

Other observations

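Values for other tissues of the same libraries complete the picture of what the skin held. Genes higher or lower at an unadjusted p under 0.05 in limma stand beside 6.92% and 4.47% of all tested genes. The 8 nerve and Schwann cell genes summed to 116 to 132 CPM with vehicle and 149.6 to 185 CPM with quinpirole, most of it Pmp22, a myelin gene that fibroblasts also make, at 76.9 ± 7.18 and 111 ± 13.8 CPM (SD, n = 5; limma adjusted p = 0.131). Pmp22 was higher at an unadjusted p under 0.05, and Mbp had a limma adjusted p of 0.925. Of 9 white fat genes, Adipoq and Retn were higher at that level, with a median log2 fold change of 0.14, and Car3, Cfd and Fabp4 were the most abundant, with limma adjusted p of 0.496, 0.760 and 0.906. Of 5 tested brown fat genes, Cidea and Cox8b were higher, with a median of 0.55. Cox8b is also a muscle gene, Ucp1 was not among the symbols, and Elovl3, which sebaceous glands make, was the most abundant at 102 ± 45.0 and 142 ± 39.7 CPM. Of 8 epidermal genes, Krt10 was higher and Krt6a and Krt16 were lower at an unadjusted p under 0.05, with a median of 0.054 and adjusted p of 0.751 for Krt14, 0.520 for Krt1 and 0.292 for Krt6a in limma. Of 7 dermal fibroblast genes, Dcn and Lum were higher, with a median of 0.22, and Col3a1, Dcn and Col1a2 had limma adjusted p of 0.616, 0.324 and 0.905. Limma called none of these genes. Their part in the muscle result was not tested.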
